A study of Saccharomyces cerevisiae with 10 samples.

Results

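Plasmid shuffling replaces the only plasmid copy of an essential gene by another. Here the gene was *SUP35*, which encodes the translation termination factor eRF3, and the allele was the wild-type one before and after the exchange. The comparison takes 7 of the 10 cultures in the series: 4 cultures of L-14-D1690 (*SUP35* on a plasmid with the *LEU2* marker, stage 3) and 3 cultures of U-14-D1690 (*SUP35* on a plasmid with the *URA3* marker, stage 1). The 7 were taken by the strain name and stage in their labels. The remaining 3 cultures carry the nonsense allele *sup35-218* and were fitted with the others, so they share in the scaling, the gene filter and the estimate of the spread.

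Both strains are labelled *MATa* and share their alleles: *ade1-14*, with a UGA stop codon, *trp1-289*, with a UAG stop codon, the histidine allele *his3-d200*, *lys2*, the plasmid marker alleles *ura3-52* and *leu2-3* with *leu2-112*, and *HIS3MX* in place of the chromosomal *SUP35*. All cells therefore lacked a chromosomal *SUP35* and carried lesions in both marker genes on the chromosome. By the study's methods, stage 1 cells were grown without uracil and stage 3 cells without leucine, and stage 3 cells had earlier been selected on 5-fluoroorotic acid, which kills cells that express *URA3*. The labels instead give 1 synthetic medium for every culture and the plasmid name pRSU2 for both strains, while the methods give the centromeric *LEU2* plasmid pRSU1 at stage 3. Marker, plasmid backbone, medium, selection on 5-fluoroorotic acid and stage thus differ together between the groups and cannot be told apart. Both strain names share the parent name 14-D1690, so the comparison describes 1 genetic background.

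Total counts were 3044096 to 4861009 per culture, and 5743 to 5885 genes had at least 10 counts in a culture. Replicate cultures correlated with r of 0.970 to 0.990 on the log2 scale across genes and differed by more than counting error, with a chi-square per degree of freedom of 6.57 to 23.2. Levels are given as normalized CPM, that is, counts scaled to a common library size with TMM factors. Stage 1 replicate 3 stood apart in genes for ribosomes. Its summed level of cytosolic ribosomal protein genes was 43596 normalized CPM, against 30420 and 33091 in the other stage 1 cultures and 37912 to 46750 at stage 3. Its summed level of ribosome biogenesis genes was 19445 CPM, against 11279 and 14088 in the other stage 1 cultures. Median log2FC by chromosome lay between -0.07 (chromosome III) and 0.04 (chromosome II).

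The mating type in the labels did not match the RNA. Haploid yeast cells of type a express a-pheromone, its exporter and the receptor for alpha-factor, whereas alpha cells express alpha-factor and the receptor for a-factor. Every culture is labelled *MATa*, but *MF(ALPHA)1*, which encodes alpha-factor, stood at 641 to 828 normalized CPM in all of them, and *STE3*, the a-factor receptor gene, at 137 to 273. The a-factor gene *MFA1* stood at 39.2 to 74.7 at stage 1 and 5.5 to 21.3 at stage 3. It is only 111 bases long, and these levels are not scaled for length. *STE2*, the alpha-factor receptor gene, stood at 71.3 to 233 at stage 1 and 16.5 to 68.7 at stage 3. At stage 1 it thus reached into the range of *STE3*, and RNA of both types was counted. *MATALPHA1* had 0 counts in every culture, which with copies of its sequence at the silent loci says nothing of the locus. The markers of sporulating cells were low, with *IME1*, *SPS1* and *SPO13* between 2.92 and 25.7 and *NDT80* between 40.3 and 58.7. Mating type is therefore not taken from the labels below.

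Of 5856 genes tested, 422 were higher at stage 3 (7.21%) and 388 were lower (6.63%), or 13.8% together. These are the differentially expressed genes (DEGs), with an adjusted p under 0.05 (quasi-likelihood test of edgeR, p adjusted by Benjamini-Hochberg over all genes tested) and a log2FC above 0.5 in size. "Rose" and "fell" are used for DEGs only, and every log2FC is stage 3 minus stage 1, given with its standard error. Most DEGs changed little: 85.1% had a log2FC under 1 in size, and 43 rose and 78 fell by more. By the adjusted p alone, 741 genes passed with a higher level (12.7%) and 748 with a lower level (12.8%), and in 909 and 1026 genes the groups did not overlap (15.5% and 17.5%). In this bulk RNA, fewer cells expressing a gene and less RNA per cell cannot be told apart. When each of the 7 cultures was left out in turn, 228 of the genes that rose and 241 of those that fell passed in every fit. Where leaving out a culture ended the call of a gene named below, that adjusted p is given.

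**Figure D1:**
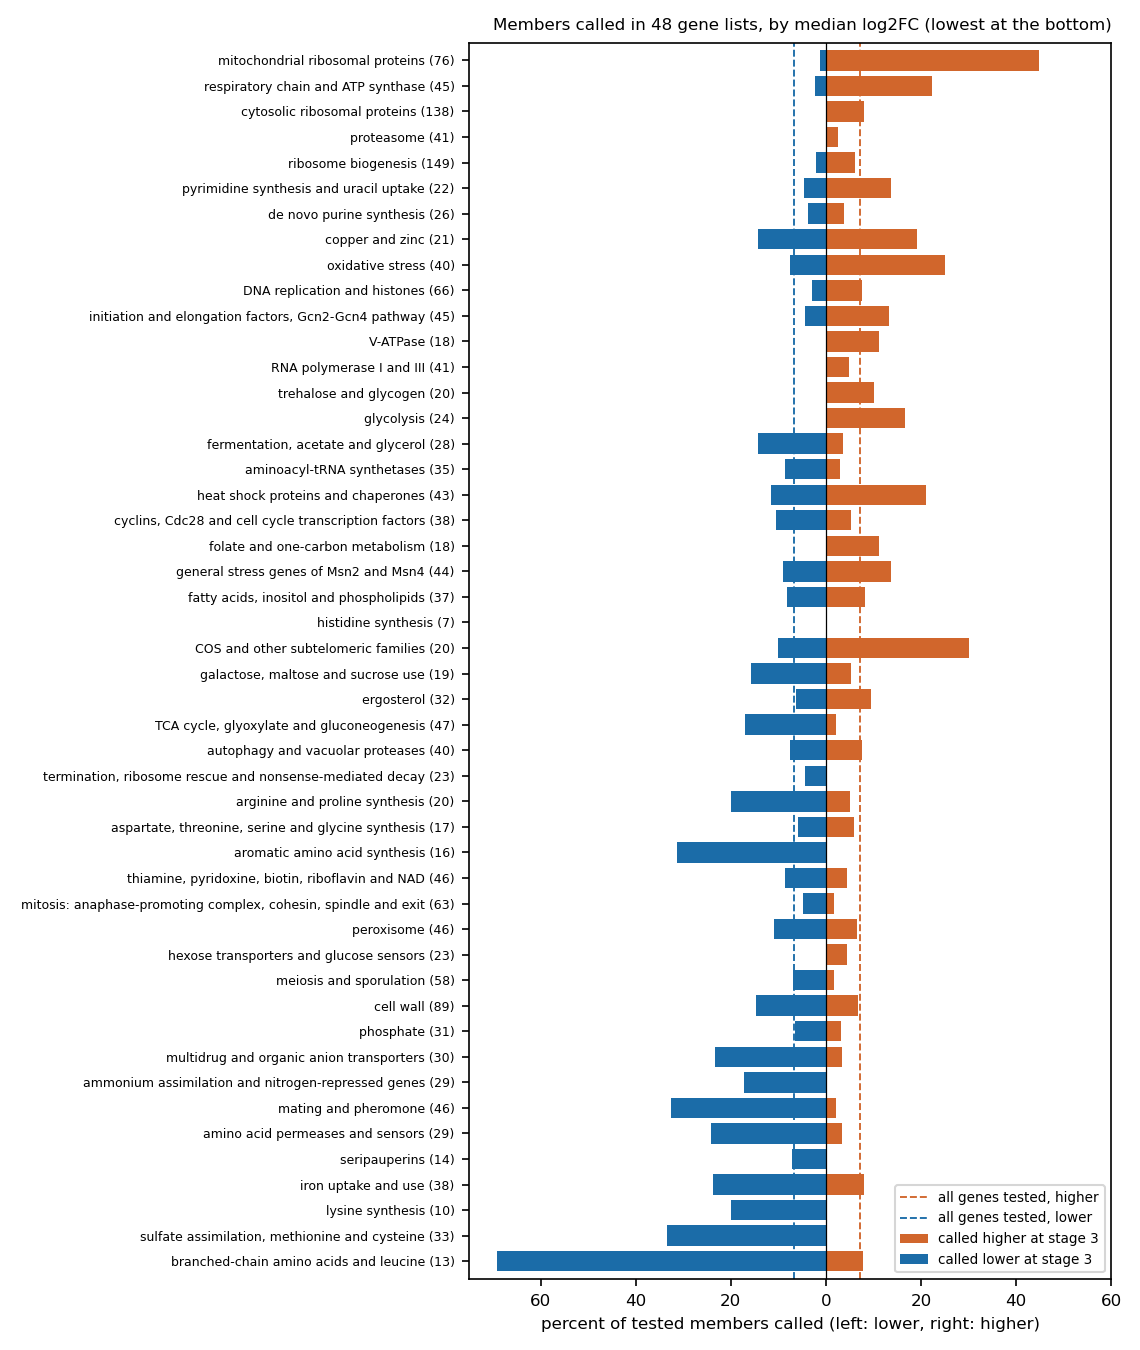
Percent of tested members of 48 gene lists that were DEGs, lower at stage 3 to the left and higher to the right, with the number tested in parentheses. The lists are ordered by median log2FC and the dashed lines mark all genes tested (6.63% lower, 7.21% higher). Branched-chain amino acid genes stand at the bottom with 9 of 13 lower, and mitochondrial ribosomal protein genes at the top with 34 of 76 higher.

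The marker genes came first as a check of the labels. *URA3* (YEL021W, chrV:116167-116970, R64), which encodes orotidine 5′-phosphate decarboxylase, stood at 829, 882 and 1091 normalized CPM at stage 1 and at 71.9, 73.7, 87.5 and 94.4 at stage 3. The groups were far apart, an 11.4-fold difference with a log2FC of -3.51 ± 0.15 (adjusted p = 3.6e-09), the largest fall among all genes tested. *LEU2* (YCL018W, chrIII:91324-92418), which encodes beta-isopropylmalate dehydrogenase, stood at 1853, 1589 and 1434 at stage 1 and at 2574, 2586, 1733 and 2743 at stage 3. The groups overlapped through stage 3 replicate 3, and the rise of 0.57 ± 0.17 (adjusted p = 0.025) rested on single cultures: the adjusted p was 0.088 without stage 1 replicate 2, 0.08 without stage 1 replicate 3, 0.055 without stage 3 replicate 2 and 0.059 without stage 3 replicate 4. Reads of the plasmid copies and of the mutated chromosomal copies of both genes count together.

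*SUP35* (YDR172W, chrIV:808324-810381) stood at 406, 421 and 481 at stage 1 and at 809, 546, 505 and 547 at stage 3. The groups did not overlap, but stage 3 replicate 1 was far above the others, and the log2FC of 0.47 ± 0.16 (adjusted p = 0.045) was under the size cutoff. *SUP35* passed both limits without stage 1 replicate 3 (0.54, adjusted p = 0.045), stage 3 replicate 3 (0.54, adjusted p = 0.034) or stage 3 replicate 4 (0.51, adjusted p = 0.047). The neighbours of *SUP35* on chromosome IV had log2FC of the same sign. *HSP42*, a small heat shock protein gene, rose by 0.67 ± 0.19 (adjusted p = 0.018; 0.052 without stage 1 replicate 1 and 0.058 without replicate 3), and *ARG82*, an inositol polyphosphate kinase gene, had a log2FC of 0.49 ± 0.17 (adjusted p = 0.047). In *ARG82* as in *SUP35*, stage 3 replicate 1 was the highest culture, at 443 against 270 to 278 in the others. Next to *URA3*, *GEA2* did not pass (0.11 ± 0.12, adjusted p = 0.55), while *TIM9*, a mitochondrial import gene that shares bases with another gene, rose by 0.85 ± 0.18 (adjusted p = 0.0051). Next to *LEU2*, *NFS1*, the cysteine desulfurase gene, had a log2FC of -0.44 ± 0.09 (adjusted p = 0.003).

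The unselected markers did not pass, other than *LYS2*. *ADE1* had a log2FC of 0.13 ± 0.10, *TRP1* of -0.05 ± 0.11 and *HIS3* of 0.00 ± 0.19. *HIS3* was counted at 360 to 638 in all 7 cultures although the genotype names a deletion. *LYS2* fell by 0.50 on the log2 scale (standard error 0.16, adjusted p = 0.036), and the call was lost in 6 of 7 fits that left out a culture. Among 23 genes of translation termination, ribosome rescue and nonsense-mediated decay, 1 fell, *NMD4* (-0.59 ± 0.14, adjusted p = 0.0079), where 6.63% of all genes fell. The median of the 23 was -0.05. The partner gene of *SUP35*, *SUP45*, had a log2FC of 0.04 ± 0.11.

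The list of branched-chain amino acid genes had the lowest median of the 48 lists. In yeast, Leu4 and Leu9 make alpha-isopropylmalate in mitochondria, Oac1 exports it, Leu1 and Leu2 convert it in the cytosol, and Bat1 and Bat2 add the amino group. Alpha-isopropylmalate is also the ligand that turns the transcription factor Leu3 into an activator. Leu3 binds the letters CCGGNNCCGG, and these were searched on both strands of the 500 bases before the start codon. They are shown because most genes that hold them changed: the match was found in 16 of 5856 tested genes (0.273%) and in 5 of 13 genes of the list. The windows below are from the R64 reference, read 5′ to 3′ on the strand of the gene, with the match in capitals. *LEU1* is at chrVII:478835-478894 (reverse strand, 207 bases from the match to the start codon), *BAT1* at chrVIII:517360-517419 (forward, 137 bases), *ILV5* at chrXII:839596-839655 (reverse, 367 bases), *ILV2* at chrXIII:483591-483650 (forward, 458 bases), *BAP2* at chrII:376042-376101 (reverse, 376 bases) and *LEU2* at chrIII:91101-91160 (forward, 188 bases).
LEU1: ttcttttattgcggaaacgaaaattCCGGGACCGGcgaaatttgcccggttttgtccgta
BAT1: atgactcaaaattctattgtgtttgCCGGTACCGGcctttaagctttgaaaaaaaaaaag
ILV5: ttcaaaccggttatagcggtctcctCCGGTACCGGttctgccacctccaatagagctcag
ILV2: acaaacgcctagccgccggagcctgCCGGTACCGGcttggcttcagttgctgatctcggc
BAP2: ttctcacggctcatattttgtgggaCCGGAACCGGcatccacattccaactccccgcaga
LEU2: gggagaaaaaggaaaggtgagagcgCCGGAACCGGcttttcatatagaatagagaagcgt

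Of the 16 genes with the match, 9 fell and 1 rose, where 6.63% and 7.21% of all genes did. Their median log2FC was -0.84. The 9 were *LEU1*, *BAT1*, *ILV5*, *ILV2*, *BAP2*, *GAT1*, *DRE2*, *FSF1* and *BRO1*, and the gene that rose was *LEU2*. The other 6 (*ATP5*, *NPL3*, *MGM101*, *AAN1*, *GAL11* and *GDH1*) did not pass. *OAC1* and *LEU4*, which fell, have no match in the window searched. A match is a description of the sequence and no evidence of binding.

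Of 13 branched-chain amino acid genes, 9 fell and 1 rose, with a median log2FC of -0.93, where 6.63% of all genes fell. *LEU1* (YGL009C), isopropylmalate isomerase, stood at 7289, 5646 and 4975 at stage 1 and at 554, 750, 730 and 938 at stage 3. The lowest stage 1 culture was far above the highest stage 3 culture, an 8.04-fold fall (log2FC -3.01 ± 0.19, adjusted p = 4e-07). *OAC1* (YKL120W) stood at 881, 800 and 742 at stage 1 and at 122, 127, 134 and 151 at stage 3, a 6.05-fold fall (-2.60 ± 0.11, adjusted p = 3.6e-09). *BAT1*, the mitochondrial aminotransferase, stood at 2330, 2142 and 1916, then at 797, 813, 695 and 792 (-1.46 ± 0.12, adjusted p = 3.1e-06). In *OAC1* and *BAT1* the cultures of a group lay close together. Those of *LEU1* spread more, from 4975 to 7289 at stage 1 and from 554 to 938 at stage 3.

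The enzymes upstream fell by less. *LEU9*, the minor isopropylmalate synthase, fell to 195 to 241 from 472 to 558 (-1.22 ± 0.13), and *LEU4*, the major one, to 980 to 1419 from 2028 to 2386 (-0.88 ± 0.14). *ILV5* (-1.02 ± 0.14), *ILV2* (-0.97 ± 0.11) and *ILV3* (-0.93 ± 0.13), which catalyse the shared steps of isoleucine and valine synthesis, fell to about the same degree, with adjusted p of 0.00021, 5.5e-05 and 0.00037. *LEU3* itself stood at 217, 235 and 267 at stage 1 and at 159, 136, 127 and 120 at stage 3 (-0.82 ± 0.11, adjusted p = 0.00029). The summed level of the 13 genes was 18701 to 23101 at stage 1 and 8751 to 10652 at stage 3. In 11 of the 13 genes, the 9 that fell among them, stage 3 lay below stage 1 without overlap, where 17.5% of all genes did. Under every setting that kept the cutoff and the test, 9 or 10 genes of the list fell.

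Some members of the list did not pass. The cytosolic aminotransferase *BAT2* had a log2FC of -0.48 ± 0.10 (adjusted p = 0.0039), just under the cutoff, and *ILV1*, threonine deaminase, of -0.24 ± 0.11 (adjusted p = 0.13). *ILV6*, the regulatory subunit of acetolactate synthase, had the opposite sign to its catalytic partner *ILV2*, at 0.46 ± 0.17 (adjusted p = 0.067), with 585 to 1060 at stage 3 against 563 to 621. Outside the list, *BAP2*, a permease for branched-chain amino acids, fell from 1587, 1559 and 1431 to 495, 454, 497 and 420 (-1.71 ± 0.11, adjusted p = 4e-07). *CDC60*, the cytosolic leucyl-tRNA synthetase, fell from 1001, 1002 and 1039 to 441, 432, 442 and 462 (-1.19 ± 0.09, adjusted p = 3.1e-06). Among 35 aminoacyl-tRNA synthetase genes it was 1 of 3 that fell (8.57%, where 6.63% of all genes did), and the median of that list was 0.03.

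**Figure D2:**
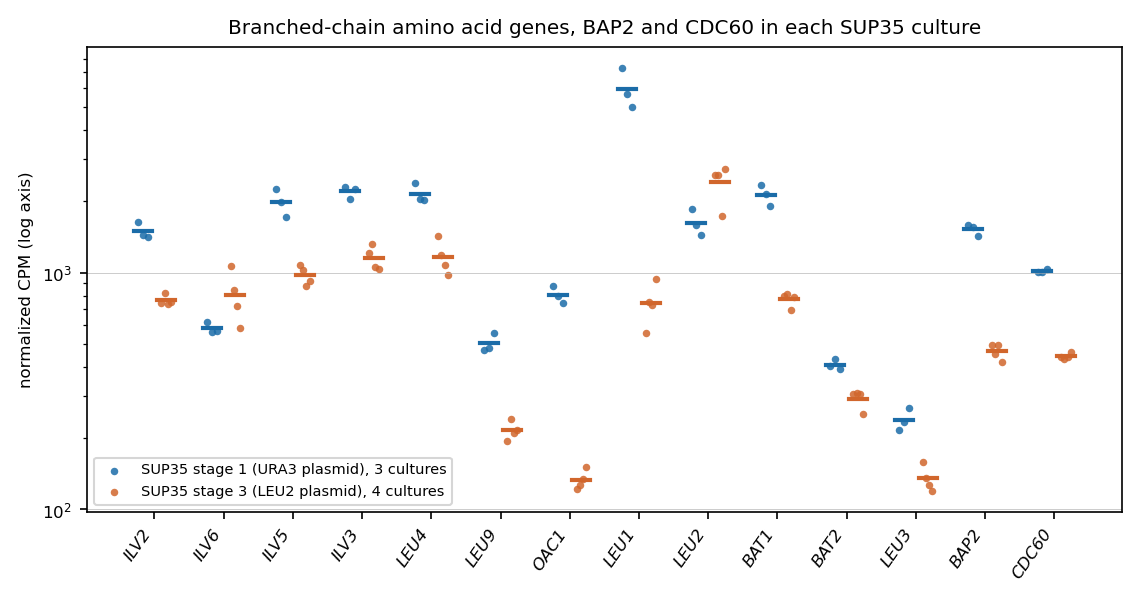
Normalized CPM (log axis) of 12 branched-chain amino acid genes, *BAP2* and *CDC60*, each point 1 culture and each line the group mean (3 cultures at stage 1, 4 at stage 3). *LEU1* and *OAC1* show the widest gaps, and *LEU2* and *ILV6* have higher means at stage 3, with overlap in both.

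Pyrimidine genes other than *URA3* that passed were higher at stage 3. Of 22 genes of uridine nucleotide synthesis, salvage and uptake, 3 rose and 1 fell, where 7.21% and 6.63% of all genes did. The median log2FC was 0.22. *URA8*, a CTP synthase, stood at 169, 176 and 179 at stage 1 and at 338, 412, 330 and 318 at stage 3 (1.00 ± 0.10, adjusted p = 2.6e-05). *FUR4*, the uracil permease, rose by 0.60 ± 0.16 (adjusted p = 0.016; 0.071 without stage 1 replicate 1 and 0.066 without replicate 2), and *YNK1*, nucleoside diphosphate kinase, by 0.51 ± 0.11 (adjusted p = 0.006), with a size of 0.44 without stage 1 replicate 3 and 0.42 without stage 3 replicate 4. The other steps of the pathway did not pass the cutoff: *URA5* had a log2FC of 0.37 ± 0.10, *URA10* of 0.35 ± 0.17, *URA1* of 0.35 ± 0.14, *URA4* of 0.26 ± 0.15 and *FCY2*, the cytosine permease, of -0.43 ± 0.12.

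Ppr1, the activator of the pathway that responds to its intermediates, binds CGGNNNNNNCCG. This was found in 5 of 22 genes of the list and 2.83% of all genes tested, and in *ILV2* and *ILV5* it shares bases with the Leu3 match. The *URA3* window is shown because it lies before the gene that fell most, at chrV:115990-116051 (forward strand, 140 bases from the match to the start codon).
URA3: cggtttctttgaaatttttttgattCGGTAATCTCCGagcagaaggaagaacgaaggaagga
The matched genes *URA1* and *URA4* did not pass. Over all 166 genes with the match 11.4% rose and 6.02% fell, where 7.21% and 6.63% of all genes did. *PPR1* had a log2FC of -0.17.

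All sulfur genes that passed fell. Yeast takes up sulfate through Sul1 and Sul2, reduces it to sulfide by the products of *MET14*, *MET16*, *MET5* and *MET10*, and joins it into homocysteine, from which methionine and cysteine are made. Met1 makes siroheme, a cofactor of sulfite reductase. Of 33 genes tested, 11 fell and none rose, where 6.63% and 7.21% of all genes did. The median log2FC was -0.49. Their summed level was 22086 to 25430 at stage 1 and 13868 to 17961 at stage 3.

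*MET1* (YKR069W) stood at 1473, 1437 and 1807 at stage 1 and at 300, 442, 365 and 507 at stage 3 (-1.96 ± 0.45, adjusted p = 0.0069). *MET10*, a sulfite reductase subunit, fell from 3496, 3364 and 3366 to 1062, 1493, 1274 and 1701 (-1.30 ± 0.34, adjusted p = 0.014). The groups were clearly apart in both, and the standard errors were large. *MET1* varied widely among the *sup35-218* cultures (540, 151 and 1301), which share in the estimate of spread. Permeases fell with the enzymes: *MMP1*, for S-methylmethionine (-1.41 ± 0.34, adjusted p = 0.0087), *MUP1*, for methionine (-0.90 ± 0.16, adjusted p = 0.0015), and *SUL2* (-1.31 ± 0.36, adjusted p = 0.019; 0.059 without stage 1 replicate 1 and 0.053 without replicate 2). *MET13*, methylenetetrahydrofolate reductase, fell from 312 to 392 to a range of 165 to 224 (-0.92 ± 0.12, adjusted p = 0.00017).

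Some calls in the list depended on single cultures. *MET16* (-1.04 ± 0.30, adjusted p = 0.021) did not pass without stage 1 replicate 1 (0.061) or without stage 3 replicates 2 (0.051) or 3 (0.055), and *MET2* (-0.78 ± 0.24, adjusted p = 0.032) did not pass without any 1 of the 7 (0.055 to 0.093). The count that fell was 6 without stage 1 replicate 1, 7 without stage 3 replicate 2, and 14 when only the 7 *SUP35* cultures were fitted. *MET14* (-0.38 ± 0.39) and *SUL1* (-0.49 ± 0.43) did not pass and overlapped. Of the regulators, *MET32* had a log2FC of -1.06 ± 0.41 without overlap (adjusted p = 0.07, and a DEG without stage 3 replicate 4), and *MET4* of -0.39 ± 0.15 (adjusted p = 0.074).

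The letters CACGTG, bound by Cbf1, a factor of this pathway, stood before 21 of the 33 genes against 6.22% of all genes tested. The windows before *MET1* (chrXI:571319-571374, forward, 262 bases to the start codon) and *MET16* (chrXVI:877780-877835, reverse, 172 bases) are shown as examples from the genes that fell.
MET1: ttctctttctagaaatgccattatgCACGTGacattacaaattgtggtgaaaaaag
MET16: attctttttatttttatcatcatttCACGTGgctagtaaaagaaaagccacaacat
Over all 364 genes with the match, 7.42% rose and 7.14% fell, near the shares of all genes, so the match alone did not mark a direction.

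Of 16 aromatic amino acid genes 5 fell, where 6.63% of all genes did. *ARO9* (aromatic aminotransferase) stood at 441, 335 and 294 at stage 1 and at 102, 124, 141 and 111 at stage 3 (-1.58 ± 0.14, adjusted p = 7.6e-06). *ARO10* (phenylpyruvate decarboxylase) stood at 583, 505 and 533, then at 145, 208, 207 and 200 (-1.51 ± 0.13, adjusted p = 5e-06). Both act in the breakdown of aromatic amino acids, and *ARO80*, which encodes their activator, fell by 0.52 on the log2 scale (standard error 0.12, adjusted p = 0.0072), a size of 0.45 to 0.48 without stage 1 replicate 1 or stage 3 replicates 2 or 4. *TRP4* (-0.60 ± 0.12) and *TYR1* (-0.55 ± 0.10, and -0.50 without stage 1 replicate 1) were the synthesis genes that fell. The count that fell was 3 without that culture. *CHA1*, catabolic serine and threonine deaminase, stood at 622, 587 and 500, then at 220, 142, 173 and 212 (-1.61 ± 0.16, adjusted p = 2.2e-05).

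In the arginine and proline list 4 of 20 fell and 1 rose, where 6.63% and 7.21% of all genes did, with a median of -0.05. *ARG56* (YER069W, acetylglutamate kinase and reductase) fell from 3500 to 3862 to a range of 1618 to 2601 (-0.84 ± 0.15, adjusted p = 0.0018), with *ARG2* (-0.68 ± 0.11), *ARG8* (-0.63 ± 0.15) and the regulator *ARG81* (-0.78 ± 0.10), while *PRO3*, the last step of proline synthesis, rose by 0.63 ± 0.10 (adjusted p = 0.00081). In the lysine list 2 of 10 fell, *LYS2* and *LYS14*, its activator (-0.55 ± 0.13, adjusted p = 0.0095; 0.051 without stage 1 replicate 1, with sizes of 0.48 and 0.47 without stage 3 replicates 2 and 4), with a median of -0.38. *AAT1*, mitochondrial aspartate aminotransferase, fell by 0.90 on the log2 scale (standard error 0.11, adjusted p = 0.0001). *AGX1*, which makes glycine from glyoxylate, rose by 0.53 ± 0.15 (adjusted p = 0.019; 0.064 without stage 1 replicate 2 and 0.063 without replicate 3). None of 7 histidine genes was a DEG by edgeR, 1 was lower by the adjusted p alone, and their log2FC lay between -0.45 and 0.14.

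The transcription factor Gcn4, which activates amino acid synthesis genes on starvation, binds TGACTCA. The match stood before 246 genes tested (4.20%) and before 8 of the 13 branched-chain genes. Of the 246 genes 17.9% fell and 4.47% rose, where 6.63% and 7.21% of all genes did. *GCN4* itself had a log2FC of 0.13, and translation of its RNA, where it is mainly controlled, was not measured. *PCL5*, which encodes a cyclin that marks Gcn4 for degradation, fell by 0.60 on the log2 scale (standard error 0.16, adjusted p = 0.014; 0.052 without stage 1 replicate 1).

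Of 29 amino acid permeases and sensors 7 fell and 1 rose, where 6.63% and 7.21% of all genes did. With *BAP2*, *MUP1* and *SAM3* these were *PTR2* for small peptides (-0.91 ± 0.19, adjusted p = 0.0037), *DIP5* for acidic amino acids (-0.88 ± 0.12, adjusted p = 0.00028), the general permease *GAP1* (-0.84 ± 0.15, adjusted p = 0.0016) and *TAT1* (-0.65). The exception was *PUT4*, the proline permease, at 287, 124, 151 and 75.5 at stage 3 against 61.2 to 89 (1.01 ± 0.33, adjusted p = 0.036). Its groups overlapped, stage 3 replicate 1 was highest, and the adjusted p was 0.062 without that culture and 0.055 to 0.098 without the others that ended the call (stage 1 replicates 1 to 3 and stage 3 replicate 3).

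Nitrogen genes fell with the permeases: 5 of 29 fell and none rose, where 6.63% and 7.21% of all genes did. *CPS1*, a vacuolar carboxypeptidase, stood at 601, 506 and 462 at stage 1 and at 201, 190, 226 and 206 at stage 3 (-1.35 ± 0.11, adjusted p = 3.2e-06). The others were the GATA activators *GLN3* (-1.01 ± 0.16) and *GAT1* (-0.79 ± 0.14), *UGA3*, the activator of genes for use of gamma-aminobutyrate (-0.85 ± 0.15), and the ammonium permease *MEP2* (-0.85 ± 0.17), with adjusted p from 0.00057 to 0.0037. In 10 of the 29 genes, these 5 among them, stage 3 lay below stage 1 without overlap, where 17.5% of all genes did.

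Iron genes fell in 9 of 38 cases, where 6.63% of all genes fell. Aft1 activates the high-affinity uptake genes when iron is short. Of the same 38 genes 3 rose, with a median of -0.26, and the summed level was 4741 to 5095 at stage 1 and 3446 to 4084 at stage 3. *ISU2*, an iron-sulfur cluster scaffold, stood at 177, 164 and 164 at stage 1 and at 35.3, 45.7, 27.6 and 27.2 at stage 3 (-2.31 ± 0.15, adjusted p = 4e-07). It shares 22.9% of its length with the gene YOR225W. The multicopper oxidase *FET3* stood at 122, 137 and 133, then at 67.4, 72.1, 62.9 and 66 (-0.96 ± 0.09, adjusted p = 1e-05). *AFT1* stood at 133, 120 and 109, then at 72.7, 63.3, 67.7 and 71.2 (-0.81 ± 0.10, adjusted p = 0.00012). In 16 of the 38 genes, these 3 among them, stage 3 lay below stage 1 without overlap, where 17.5% of all genes did.

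Other genes that fell in the list were the biotin permease *VHT1* (-1.10 ± 0.11, adjusted p = 2.6e-05), which is also regulated by iron, the reductases *FRE6* (-0.91), *FRE2* (-0.87) and *FRE5* (-0.64 ± 0.16, adjusted p = 0.01; 0.054 without stage 1 replicate 2), the siderophore transporter *ENB1* (-0.70) and *FMP23* (-0.93 ± 0.26, adjusted p = 0.018; 0.09 without stage 1 replicate 1, 0.052 without replicate 2 and 0.059 without stage 3 replicate 2). Members that rose were *YFH1*, frataxin (0.67 ± 0.12, adjusted p = 0.0014), *HEM15*, ferrochelatase (0.53 ± 0.09, adjusted p = 0.0015; a size of 0.49 without stage 1 replicate 2 or stage 3 replicate 4), and *TIS11*, which binds the mRNA of iron-using proteins for decay (0.64 ± 0.20, adjusted p = 0.032; 0.058 to 0.1 without the 4 cultures that ended the call, stage 1 replicates 1 and 2 and stage 3 replicates 3 and 4). Without stage 1 replicate 2 or stage 3 replicate 4, 1 of the list rose. *AFT2* had a log2FC of -0.44 ± 0.12. Of 46 vitamin genes 4 fell and 2 rose (8.70% and 4.35%), where 6.63% and 7.21% of all genes did, with a median of -0.08. Among those that fell *BIO5*, a transporter of biotin precursors, stood at 128 to 148 at stage 1 and 63.8 to 70.5 at stage 3 (-1.01 ± 0.09, adjusted p = 7.6e-06), and *BIO3* had a log2FC of -0.94 ± 0.18 (adjusted p = 0.0021).

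The Aft1 letters TGCACCC stood before 24 of 38 genes of the list and 2.34% of all genes tested. Over the 137 genes with the match 13.1% fell and 5.11% rose, where 6.63% and 7.21% of all genes did. The windows before *FET3* (chrXIII:388546-388602, forward, 244 bases to the start codon) and *ENB1* (chrXV:21417-21473, reverse, 130 bases) come from genes that fell, and a match also stands before *TIS11*, which rose.
FET3: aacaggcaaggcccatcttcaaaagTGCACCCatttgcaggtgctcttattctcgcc
ENB1: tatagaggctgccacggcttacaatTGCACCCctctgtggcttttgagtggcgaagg

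Among 21 copper and zinc genes 4 rose and 3 fell, where 7.21% and 6.63% of all genes did. *ADH4*, an alcohol dehydrogenase gene known to be induced when zinc is short, had the largest rise of all named genes: 707, 342 and 624 at stage 1 and 1515, 2188, 1456 and 2986 at stage 3 (1.87 ± 0.27, adjusted p = 0.0004). The groups did not overlap, although the stage 1 cultures ranged widely. *COT1*, a vacuolar transporter of zinc and cobalt, stood at 240, 224 and 194, then at 110, 94.5, 92.1 and 84.9 (-1.20 ± 0.11, adjusted p = 7.6e-06). *MAC1*, the copper-sensing activator, fell by 1.12 on the log2 scale (standard error 0.15, adjusted p = 0.0002), and its target *CTR1*, the copper permease, by 0.71 (standard error 0.22, adjusted p = 0.029), with overlap and an adjusted p of 0.052 to 0.17 without stage 1 replicates 1 or 2 or stage 3 replicates 1 or 3. *COX17*, a copper chaperone of mitochondria, rose by 0.76 ± 0.12 (adjusted p = 0.00076). Without stage 1 replicate 2, stage 1 replicate 3 or stage 3 replicate 2, 2 of the list rose.

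**Figure D3:**
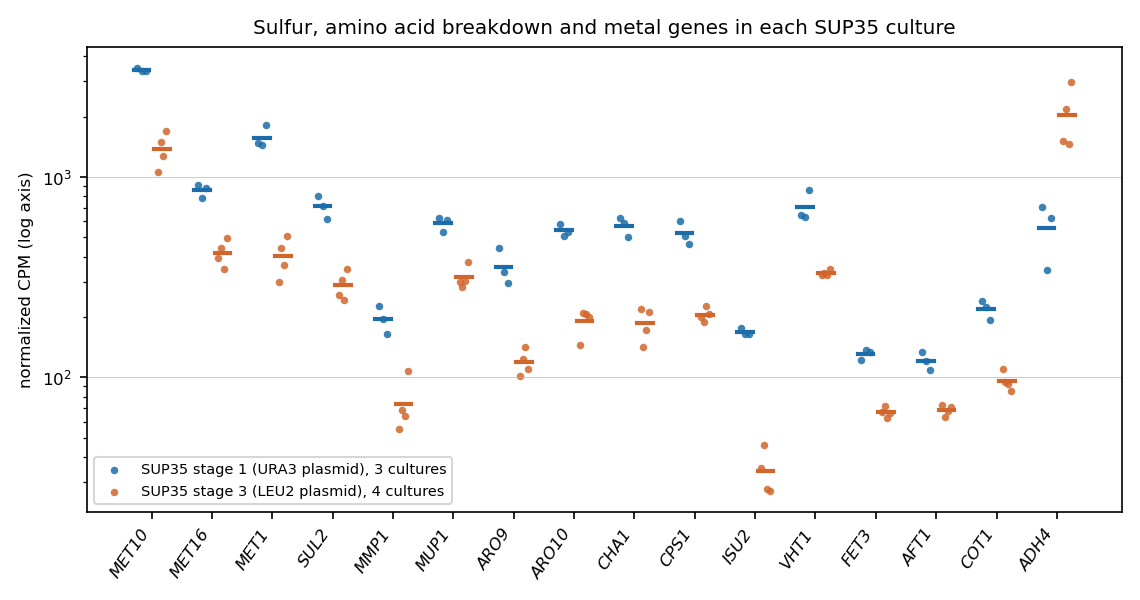
Normalized CPM (log axis) of sulfur genes, genes of amino acid breakdown, and iron, copper and zinc genes, each point 1 culture and each line the group mean. The 16 were picked from the DEGs. *MET14* and *SUL1*, which did not pass, and *YFH1*, *TIS11* and *COX17*, which rose, are not shown. *ADH4* is the only gene of the 16 with all 4 stage 3 cultures above the stage 1 cultures, and in the other 15 all 4 lie below.

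Mitochondrial ribosomal protein genes rose together. These nuclear genes encode the ribosome that translates the few proteins made inside mitochondria. Of 76 tested, 34 rose and 1 fell, where 7.21% of all genes rose, with a median log2FC of 0.48 and 72 of 76 above 0. By the adjusted p alone 54 were higher, against 12.7% of all genes. Their summed level was 5380 to 5510 at stage 1 and 6667 to 8837 at stage 3, highest in stage 3 replicate 4. *MRPL8* stood at 60.2, 55.2 and 56.4 at stage 1 and at 94.3, 139, 87 and 126 at stage 3 (0.96 ± 0.15, adjusted p = 0.00075), *MRPS35* rose by 0.88 ± 0.14 (adjusted p = 0.00075) and *RSM19* by 0.81 ± 0.18 (adjusted p = 0.0054). *MRPL51* had the largest value (1.27 ± 0.21, adjusted p = 0.00094), but 76.4% of it overlaps another gene, with which its reads can be confused. The member that fell was *RSM22*, a methyltransferase-like protein (-0.54 ± 0.16, adjusted p = 0.021; 0.13 without stage 1 replicate 2, 0.067 without stage 3 replicate 2, with a size of 0.43 without stage 3 replicate 1). The count that rose was 20 without stage 3 replicate 4.

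Gene length differed with the calls. Over all genes the median log2FC was 0.15 for genes up to 500 bases, 0.12 from 500 to 1000, -0.04 from 1000 to 2000 and -0.13 above 2000, where lengths run from start to stop codon. In the shortest class 12.7% rose and 3.72% fell, and in the longest 1.89% rose and 8.72% fell. Genes under 500 bases took 5.84% to 6.36% of the counts at stage 1 and 6.55% to 7.09% at stage 3, without overlap. Within a class, mitochondrial ribosomal protein genes were above the median of all genes, at 0.45, 0.53 and 0.30 in the 3 classes up to 2000 bases. With a correction for length, added after the data were seen, 15 of them rose in place of 34, and 308 of all genes rose and 390 fell. What part of the differences between gene groups goes with length was not tested further.

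**Figure D4:**
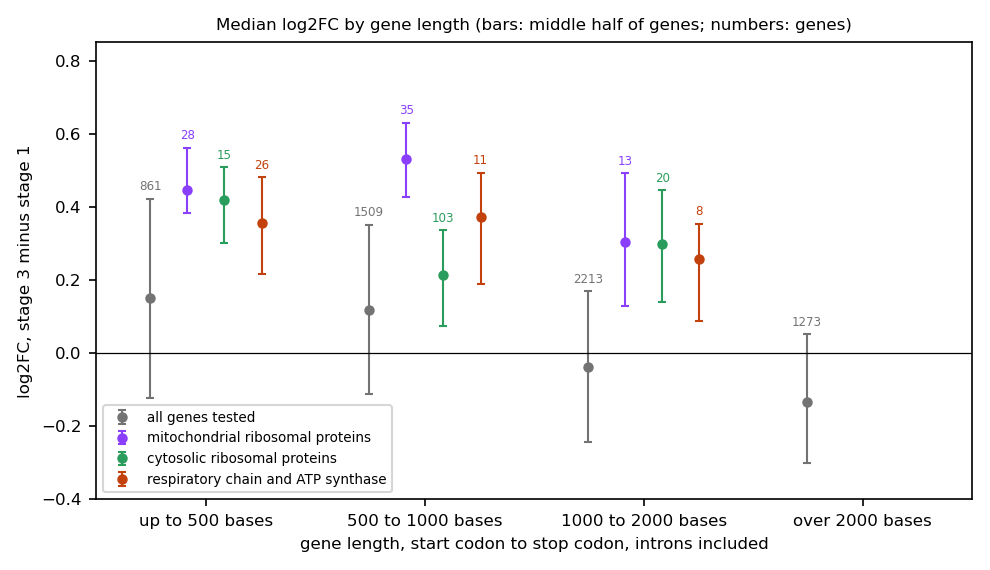
Median log2FC (points) with the quartiles (bars) by gene length, for all genes tested and 3 lists, with the number of genes above each bar. The median of all genes falls from 0.15 in the shortest to -0.13 in the longest class, and mitochondrial ribosomal protein genes lie higher in each class that holds them.

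Respiratory chain and ATP synthase genes also rose. Of 45 nuclear genes 10 rose and 1 fell, where 7.21% and 6.63% of all genes did, with a median of 0.34. The summed level was 7839 to 10142 at stage 1 and 11083 to 13074 at stage 3. *STF1*, which stabilizes the inhibitor of ATP synthase, stood at 168, 171 and 133 at stage 1 and at 296, 262, 323 and 336 at stage 3 (0.95 ± 0.12, adjusted p = 0.00012). *COR1* and *QCR6*, subunits of the bc1 complex, rose by 0.75 ± 0.11 and 0.92 ± 0.17, and *ATP7*, of ATP synthase, by 0.78 ± 0.13 (adjusted p from 0.00049 to 0.0021). *COX9*, of cytochrome oxidase, fell by 0.61 on the log2 scale (standard error 0.17, adjusted p = 0.02), a size of 0.35 without stage 1 replicate 1, where it was highest, and an adjusted p of 0.054 and 0.053 without stage 3 replicates 2 and 3. With the length correction 5 of the list rose. *HAP4*, which encodes the activating subunit of the factor that drives respiratory genes, fell in the same cultures (-0.56 ± 0.13, adjusted p = 0.0078; 0.06 without stage 1 replicate 2).

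Cytosolic ribosome genes were nearer the background. Of 138 ribosomal protein genes 11 rose and none fell, a share close to that of all genes, but 121 had a log2FC above 0 and the median was 0.25. *RPS22B* rose from 50.5, 57.6 and 87.8 to 93.2, 145, 137 and 157 (1.03 ± 0.20, adjusted p = 0.0024), *RPL12A* by 0.71 ± 0.11 (adjusted p = 0.00052), *RPS9B* by 0.66 ± 0.14 (adjusted p = 0.0043) and *RPS31* by 0.59 ± 0.13 (adjusted p = 0.0054). Many of these genes have near-identical paralogs, between which reads may be split uncertainly, and *RPL12A* shares most of its length with another gene. Of 149 ribosome biogenesis genes 9 rose and 3 fell (6.04% and 2.01%), both under the 7.21% and 6.63% of all genes, with a median of 0.23. *TSR3* rose by 0.88 ± 0.13 (adjusted p = 0.00038), *GAR1* by 0.81 ± 0.20 (adjusted p = 0.01; 0.058 without stage 1 replicate 2) and *NOP8* by 0.81 ± 0.20 (adjusted p = 0.0094; 0.053 without the same culture). Both counts turned on stage 1 replicate 3, the culture with high ribosome genes. Without it, 42 ribosomal protein and 45 biogenesis genes rose, whereas without stage 1 replicate 1 the counts were 4 and 3, without stage 1 replicate 2 they were 7 and 1, without stage 3 replicate 1 they were 21 and 17, and without stage 3 replicate 4 they were 7 and 4. Without stage 3 replicate 2, 5 biogenesis genes rose.

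Translation factors showed single changes. Of 45 initiation, elongation and Gcn2 pathway genes 6 rose and 2 fell, where 7.21% and 6.63% of all genes did. *CAM1*, an elongation factor 1B subunit, stood at 423, 407 and 411 at stage 1 and at 799, 797, 667 and 666 at stage 3 (0.82 ± 0.11, adjusted p = 0.00019). *TIF35*, of initiation factor 3, rose by 0.74 ± 0.16 (adjusted p = 0.0048). *FUN12*, initiation factor 5B, rose by 1.02 ± 0.27 (adjusted p = 0.015; 0.056 without stage 1 replicate 1 and 0.068 without replicate 2), and its stage 1 cultures spread from 572 to 1513. *EFT1* and *EFT2*, near-identical genes of elongation factor 2, rose by 0.64 ± 0.13 and 0.60 ± 0.15, the latter with an adjusted p of 0.053 without stage 1 replicate 1. The RNA helicase *DED1* fell by 0.61 on the log2 scale (standard error 0.18, adjusted p = 0.021; 0.12 without stage 1 replicate 2 and 0.052 without stage 3 replicate 4). *DIA4*, a mitochondrial seryl-tRNA synthetase, was the synthetase gene that rose (0.90 ± 0.17, adjusted p = 0.002). Without stage 1 replicate 1, 3 genes of this list rose.

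Carbon metabolism held DEGs in both directions. In glycolysis 4 of 24 genes rose and none fell: *GPM1*, phosphoglycerate mutase (0.89 ± 0.14), *TPI1*, triose phosphate isomerase (0.83 ± 0.14), *FBA1*, aldolase (0.72 ± 0.16), and *GPM2* (0.71 ± 0.13), with adjusted p from 0.00066 to 0.005. *FBA1*, among the most abundant, stood at 4204, 4287 and 4363 at stage 1 and at 6190, 8463, 6166 and 7361 at stage 3. The median of the list was 0.04, and 16.7% of it rose, where 7.21% of all genes did. By the adjusted p alone 5 of the list were higher and 2 lower, the latter under the cutoff. YKL153W, an open reading frame that overlaps *GPM1* over 91.8% of its length, had a log2FC of 1.86 ± 0.17, and YAL037C-B, inside *CDC19*, of 1.28 ± 0.19. Their reads cannot be told from those of the genes they overlap, since the strand setting of the counting is not given.

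Acetate and fermentation genes fell in 4 of 28 cases, where 6.63% of all genes fell, and rose in *ADH4*. *ALD5*, mitochondrial aldehyde dehydrogenase, stood at 1121, 990 and 945 at stage 1 and at 546, 520, 322 and 366 at stage 3 (-1.22 ± 0.17, adjusted p = 0.00029), *ACS2*, acetyl-CoA synthetase, fell by 0.75 on the log2 scale (standard error 0.13, adjusted p = 0.0012) and *ADH2* by 0.69 (standard error 0.18, adjusted p = 0.013; 0.054 without stage 1 replicate 2). In the list of the tricarboxylic acid cycle, gluconeogenesis and their regulators 8 of 47 fell and 1 rose, where 6.63% and 7.21% of all genes did. The median was -0.03. The 8 included the regulator genes *RTG1*, *RTG3* and *HAP4*, so the count is not one of cycle enzymes alone. By the adjusted p alone 5 of the list were higher and 10 lower. The mitochondrial citrate synthase *CIT3* stood at 173, 167 and 134, then at 54, 55.7, 57.8 and 49.5 (-1.54 ± 0.11, adjusted p = 7.8e-07), and the malic enzyme *MAE1* at 300, 293 and 310, then at 126, 154, 127 and 92.6 (-1.27 ± 0.13, adjusted p = 2.3e-05). *RTG1* and *RTG3*, the factors that turn on peroxisomal and early cycle genes when mitochondria fail, fell as well (-0.85 ± 0.19 and -0.73 ± 0.12), and *LPD1*, lipoamide dehydrogenase, rose by 0.63 ± 0.12 (adjusted p = 0.0018). Without stage 1 replicate 2, 5 of this list and 2 of the fermentation list fell.

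In the peroxisome list 5 of 46 fell and 3 rose (10.9% and 6.52%, where 6.63% and 7.21% of all genes did). The carnitine carrier *CRC1* (-1.31 ± 0.26, adjusted p = 0.0026) and the carnitine acetyltransferase *YAT2* (-1.25 ± 0.13, adjusted p = 3.2e-05), which pass acetyl groups into mitochondria, fell without overlap. Of 20 trehalose and glycogen genes 2 rose and none fell, where 7.21% and 6.63% of all genes did, with a median of 0.07. *TPS1*, of trehalose synthesis, rose by 0.57 ± 0.14 (adjusted p = 0.0079), a size of 0.50 without stage 1 replicate 3, and *GLC3*, the glycogen branching enzyme, by 0.74 ± 0.21 (adjusted p = 0.021; 0.054 without the same culture). *SUC2*, invertase, stood at 362, 691 and 537, then at 177, 290, 300 and 283 (-1.02 ± 0.22, adjusted p = 0.0056). Of 23 hexose transporter and sensor genes 1 rose, *MTH1* (0.60 ± 0.20, adjusted p = 0.041; 0.081 to 0.12 without stage 1 replicates 1 or 3 or stage 3 replicates 1 or 3), and 2 were lower by the adjusted p but under the cutoff.

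Chaperone genes moved both ways. Of 43 heat shock protein and chaperone genes 9 rose and 5 fell, where 7.21% and 6.63% of all genes did, with a median of 0.03. *BTN2*, which collects misfolded proteins, stood at 642, 702 and 574 at stage 1 and at 1627, 1436, 2248 and 1339 at stage 3 (1.38 ± 0.22, adjusted p = 0.00071). Its paralog *CUR1* (0.65 ± 0.19, adjusted p = 0.024; 0.067 to 0.08 without stage 1 replicates 2 or 3 or stage 3 replicate 3), the Hsp40 gene *APJ1* (0.74 ± 0.25, adjusted p = 0.043; 0.06 to 0.13 without any stage 1 culture or stage 3 replicates 1 or 3), *HSP82* (0.69 ± 0.18, adjusted p = 0.012) and *SSB2*, a ribosome-bound Hsp70 (0.67 ± 0.14, adjusted p = 0.0047), rose too. *HSP82* and *SSB2* have near-identical paralogs.

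Of the 5 that fell, *HSP12*, a membrane protein, stood at 2365, 3021 and 2460 at stage 1 and at 1455, 1584, 1577 and 1252 at stage 3 (-0.83 ± 0.15, adjusted p = 0.0014). The plasma membrane protein gene *HSP30* fell by 0.93 on the log2 scale (standard error 0.22, adjusted p = 0.0086; 0.062 without stage 1 replicate 2), *HSP26* by 0.54 (standard error 0.18, adjusted p = 0.038; 0.053 to 0.18 without stage 1 replicates 1 or 2 or stage 3 replicates 1 or 4) and *HSF1*, the heat shock factor, by 0.68 (standard error 0.12, adjusted p = 0.0013). The stress factor *MSN4* fell by 0.62 (standard error 0.14, adjusted p = 0.0063), a size of 0.48 without stage 1 replicate 2, and *MSN2* had a log2FC of -0.44 ± 0.13. In the list of general stress genes of Msn2 and Msn4, 6 of 44 rose and 4 fell (13.6% and 9.09%), where 7.21% and 6.63% of all genes did. The median of that list was 0.01. The count of chaperone genes that rose was 5, 5 and 4 without stage 1 replicates 1, 2 and 3, and 3 and 2 fell without stage 1 replicates 1 and 2.

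Genes against oxidants rose in 10 of 40 cases and fell in 3, where 7.21% and 6.63% of all genes did. The largest rises were in a pair of neighbours on chromosome IX: *GTT1*, a glutathione transferase, stood at 185, 180 and 163 at stage 1 and at 412, 460, 372 and 422 at stage 3 (1.24 ± 0.11, adjusted p = 7.6e-06), and *HYR1*, a glutathione peroxidase, at 223, 196 and 190, then at 443, 475, 429 and 505 (1.19 ± 0.11, adjusted p = 7.6e-06). Both were more than 2-fold higher in the mean, and their coding sequences do not overlap. *GND1*, of the pentose phosphate pathway, rose by 0.75 ± 0.13 (adjusted p = 0.0014). *GRX4*, a glutaredoxin that takes part in iron sensing, fell from 455, 407 and 379 to 272, 190, 199 and 117 (-1.09 ± 0.19, adjusted p = 0.0015), and *GTT2*, another glutathione transferase, fell by 0.64 on the log2 scale (standard error 0.15, adjusted p = 0.0073).

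Mating genes fell. Of 46 tested, 15 fell and 1 rose, where 6.63% and 7.21% of all genes did, with a median of -0.23. The a-specific genes, which alpha cells repress, led: *MFA1* stood at 74.7, 68.2 and 39.2 at stage 1 and at 21.3, 7.56, 9.1 and 5.5 at stage 3 (-2.46 ± 0.33, adjusted p = 0.00021), and *STE2*, the alpha-factor receptor, at 233, 133 and 71.3, then at 68.7, 18.6, 40.7 and 16.5 (-1.99 ± 0.42, adjusted p = 0.0043). In both, stage 1 replicate 3 was the lowest of its group and stage 3 replicate 1 the highest of its group. The same order held in *MFA2* (-1.84 ± 0.46, adjusted p = 0.011; 0.054 without stage 1 replicate 1), *BAR1*, the alpha-factor protease (-1.42 ± 0.31, adjusted p = 0.0048), *AGA2*, an a-agglutinin subunit (-1.65 ± 0.53, adjusted p = 0.035; 0.063 to 0.15 without stage 1 replicates 1 or 2 or stage 3 replicates 2, 3 or 4) and *ASG7* (-0.97 ± 0.27, adjusted p = 0.018; 0.054 to 0.088 without stage 1 replicates 1 or 2 or stage 3 replicate 2). The groups of these 4 genes overlapped. *STE6*, the a-factor exporter, fell by 0.74 on the log2 scale (standard error 0.13, adjusted p = 0.0012).

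Alpha-specific genes did not fall with them. *MF(ALPHA)1* had a log2FC of 0.13 ± 0.15 (adjusted p = 0.54), *STE3* of -0.39 ± 0.16 (adjusted p = 0.088) and *SAG1*, alpha-agglutinin, of -0.41 ± 0.14 (-0.54 and adjusted p = 0.0066 without stage 3 replicate 1). *MF(ALPHA)2* rose by 0.50 ± 0.13 (adjusted p = 0.011), close to the cutoff, and its size was 0.41 to 0.48 without stage 1 replicate 2 or stage 3 replicates 2 or 4. Genes that pheromone induces in both mating types fell: *TEC1* (-0.95 ± 0.15, adjusted p = 0.00053), *FUS1* (-0.94 ± 0.24, adjusted p = 0.011; 0.051 without stage 1 replicate 1), *AGA1* (-0.93 ± 0.31, adjusted p = 0.042; 0.087 to 0.18 without any 1 culture other than stage 1 replicate 3 and stage 3 replicate 1), *PRM2* (-0.90 ± 0.19), *KAR5* (-0.89 ± 0.17) and *SST2* (-0.89 ± 0.17), together with *STE12*, their activator (-0.55 ± 0.12, adjusted p = 0.0053), whose size was 0.49 without stage 1 replicate 2.

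**Figure D5:**
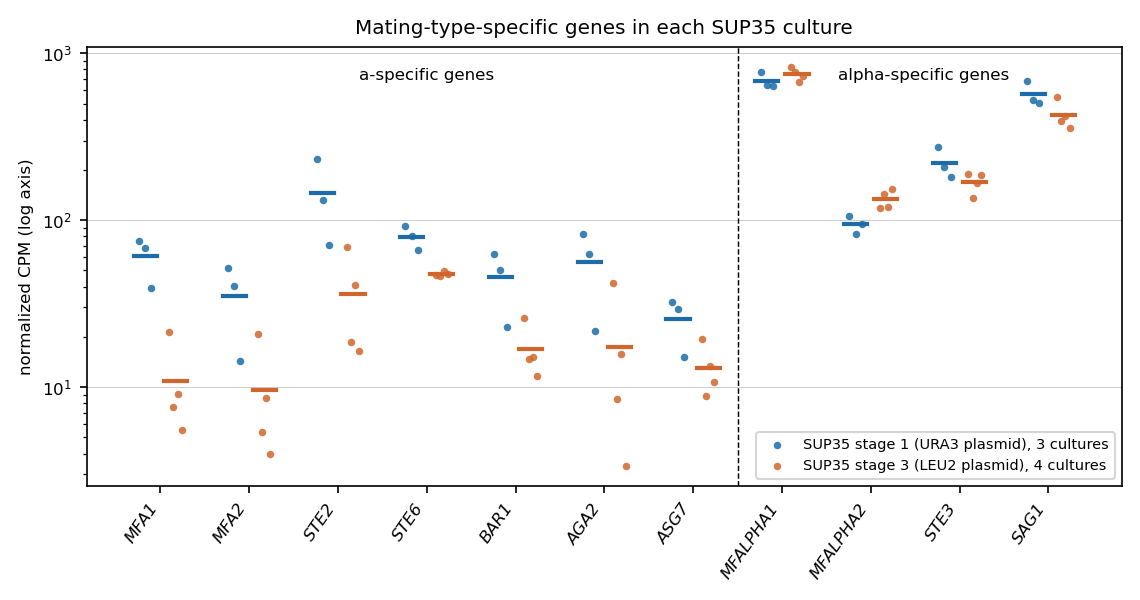
Normalized CPM (log axis) of 7 a-specific genes (left of the dashed line) and 4 alpha-specific genes (right), each point 1 culture and each line the group mean. The means of the a-specific genes lie below those of *MF(ALPHA)1* and drop from stage 1 to stage 3. At stage 1 the mean of *STE2* (146) lies above all cultures of the alpha-specific gene *MF(ALPHA)2* (83.0 to 106). Of the alpha-specific genes 1, *MF(ALPHA)2*, passed the test, with higher levels.

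Cell surface genes fell more than they rose, 13 against 6 of 89, where 6.63% and 7.21% of all genes did. *PIR5*, a cell wall protein, stood at 120, 114 and 123 at stage 1 and at 50.8, 42.5, 45.2 and 30.9 at stage 3 (-1.48 ± 0.15, adjusted p = 2.1e-05), while the related *CIS3* stood at 105, 90.1 and 89.7, then at 217, 234, 187 and 215 (1.17 ± 0.11, adjusted p = 1.7e-05). Members of 1 family thus moved in opposite directions. *CWP2*, a mannoprotein, rose by 0.92 ± 0.15 (adjusted p = 0.001) and *FLO11*, a flocculin, by 0.67 ± 0.14 (adjusted p = 0.0041). The daughter-cell genes *DSE1* and *DSE2* fell (-0.73 ± 0.15 and -0.91 ± 0.15). Without stage 1 replicate 1 or replicate 2, 8 of the list fell.

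Of 66 replication and histone genes 5 rose and 2 fell (7.58% and 3.03%, where 7.21% and 6.63% of all genes did). *RNR1*, ribonucleotide reductase, stood at 28.7, 27.3 and 29.2 at stage 1 and at 46.1, 63, 51.9 and 71.2 at stage 3 (1.03 ± 0.16, adjusted p = 0.00052). *CDC21*, thymidylate synthase, of the folate list, rose from 8.77, 10.3 and 11.3 to 20.8, 27.1, 21.9 and 37.9 (1.40 ± 0.21, adjusted p = 0.00053). *POL30*, the sliding clamp, rose by 0.93 ± 0.20 (adjusted p = 0.0053), although 75.2% of it overlaps another gene, and *TOS4*, a G1/S transcription factor of the cyclin list, by 1.07 ± 0.20 (adjusted p = 0.0019). All 4 were low in level and highest in stage 3 replicate 4. *PSF2*, of the GINS complex, went the other way, at 159, 164 and 213, then at 74.5, 73.4, 81.9 and 77.6 (-1.21 ± 0.11, adjusted p = 7.6e-06), as did *POL1* (-0.65 ± 0.11, adjusted p = 0.0013). Of the 5 genes that rose, 3 did so without stage 1 replicate 2 or stage 3 replicate 4.

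Cyclin and mitosis genes changed singly. In the cyclin list 5.26% rose and 10.5% fell, where 7.21% and 6.63% of all genes did. Of 38 cyclin and cell cycle factor genes 2 rose, *TOS4* and *FKH1* (0.75 ± 0.18, adjusted p = 0.0095), and 4 fell, led by *PCL7*, a cyclin of the kinase Pho85 (-0.97 ± 0.10, adjusted p = 2.6e-05). Without stage 3 replicate 4, 2 fell. Of 63 mitosis genes 3 fell and 1 rose (4.76% and 1.59%), both under the shares of all genes. *DBF20*, a kinase of mitotic exit, stood at 303, 251 and 230, then at 162, 119, 128 and 91 (-1.06 ± 0.15, adjusted p = 0.00038).

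Of 30 genes of multidrug and organic anion transport and its regulators 7 fell and 1 rose, where 6.63% and 7.21% of all genes did. *QDR2*, a drug and cation exporter, stood at 337, 309 and 291 at stage 1 and at 129, 122, 137 and 95.9 at stage 3 (-1.37 ± 0.11, adjusted p = 4.4e-06), with its neighbour *QDR1* (-0.77 ± 0.10), *ATR1* (-0.86 ± 0.14) and the factor *PDR8* (-0.84 ± 0.14). *PDR3*, another factor gene, fell by 0.55 (standard error 0.11), a size of 0.47 to 0.50 without stage 1 replicate 2 or stage 3 replicates 2 or 4, and *TPO2*, a polyamine exporter, rose by 0.77 ± 0.14 (adjusted p = 0.0019). Without stage 3 replicate 4, 4 of the list fell. In the ergosterol list 3 of 32 rose and 2 fell, shares near those of all genes. *AUS1*, a sterol importer, fell from 255, 219 and 172 to 105, 80.3, 95.5 and 68.4 (-1.30 ± 0.16, adjusted p = 9.6e-05). *ERG28*, a scaffold of sterol synthesis, rose by 0.70 ± 0.12 (adjusted p = 0.0014).

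Of 37 fatty acid, inositol and phospholipid genes 3 rose and 3 fell (8.11% each, near the shares of all genes), with a median of 0.01. *INO1*, inositol phosphate synthase, stood at 1663, 2274 and 2001 at stage 1 and at 2680, 3313, 3090 and 4209 at stage 3 (0.75 ± 0.17, adjusted p = 0.0077). *CHO1*, phosphatidylserine synthase, rose by 0.72 ± 0.12 (adjusted p = 0.00075) and *OLE1*, the fatty acid desaturase, by 0.68 ± 0.09 (adjusted p = 0.00022). These were the 3 that rose. Without stage 3 replicate 4, 5 rose, and without stage 1 replicate 3, 5 fell.

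The most changed genes outside these lists were of mixed function. *RCK1*, a protein kinase gene, rose from 8.47, 12.8 and 11.7 to 39.5, 32.7, 45.5 and 23.8 (1.68 ± 0.24, adjusted p = 0.00032). *FMP48* (1.34 ± 0.19) and *FMP16* (1.34 ± 0.30), whose products were found in mitochondria, and *GPG1*, a G protein gamma-like subunit (1.30 ± 0.16), also rose, with adjusted p from 0.00013 to 0.0059. *SRL4* (-2.10 ± 0.32, adjusted p = 0.00051), *RGS2*, a negative regulator of glucose-sensing G protein signalling (-1.93 ± 0.15, adjusted p = 3.1e-06), and *SEO1*, a putative permease (-1.93 ± 0.56, adjusted p = 0.023; 0.051 to 0.1 without stage 1 replicates 1 or 2 or stage 3 replicates 2 or 3), fell. *RGS2* stood at 171, 111 and 110 at stage 1 and at 35, 35.3, 36.1 and 30.5 at stage 3, the cultures of stage 3 almost equal.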

How the data were processed

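RNA of 10 yeast cultures was sequenced as paired reads of 150 bases. Per the labels and the methods, the authors trimmed reads with Trimmomatic, aligned them to the S288C genome (R64-3-1) with HISAT2 and counted them with featureCounts. The tool versions and the strand setting of the counting are not given in the sources used here. The authors deposited whole-number counts of 6607 genes without normalization. The 28 mitochondrial genes have 0 counts and were not analysed here.

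Cultures were grouped by strain name and numbered by replicate in their labels. Counts of all 10 cultures were fitted with edgeR 4.0.16 (R 4.3.3, limma 3.58.1) by the quasi-likelihood method with 3 groups, TMM factors and filterByExpr at a minimum count of 10. The contrast was *SUP35* stage 3 minus stage 1, with p-values adjusted over 5856 genes. A standard error is the log2FC divided by the square root of F. Alternatives were other size factors, DESeq2 1.42.0, other filters and cutoffs, glmTreat, only the *SUP35* cultures, a replicate block and leaving out each culture. Corrections for length and GC content were added after the data were seen. The fit was tested on simulated data. A count of 3 corresponds to a share of 6.17e-05% to 9.86e-05%, below which a level is not measurable, and this covers counting error only.

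The members and the 48 gene lists were chosen with earlier results of these data known. Named genes are the plasmid and auxotrophic markers, *SUP35* and the neighbours of the plasmid genes, members of the pyrimidine and branched-chain lists, mating and sporulation markers, the 10 largest rises and falls among DEGs whose groups did not overlap and whose mean was 50 counts or more, and, in each other list, up to 4 DEGs per direction and its regulators. Chosen after their values were seen were *CHA1*, *ARO80*, *MET2*, *MET13*, *MET14*, *MET16*, *SUL1*, *SAM3*, *GAP1*, *TAT1*, *ENB1*, *FRE2*, *FRE5*, *FRE6*, *CUR1*, *HSP26*, *EFT2*, *RPS31*, *DSE1*, *ASG7*, *SAG1*, *FUS1*, *KAR5*, *PRM2*, *SST2*, *TEC1*, *SUP45* and the genes with a Leu3 match. Promoter windows are from the R64 reference, with 5924 of the genes matched to its annotation by systematic name.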

Additional observations from a re-analysis of the deposited data

Results flagged for a closer look

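In 14 of 220 named genes 1 stage 3 culture lay apart from the other 3, by Dixon's test at 95%, where chance gives about 1 in 20, or 11 genes. Replicate 1 stood apart in 8 of them, replicate 4 in 4, and replicates 2 and 3 in 1 each.

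Replicate 1 was highest in *SUP35* (809 normalized CPM, the others 505 to 547), in its neighbour *ARG82* (443, the others 270 to 278), in the mating factor gene *STE12* (87.4, the others 66.1 to 69) and in *AMS1*, a vacuolar mannosidase gene (467, the others 407 to 417). It was lowest in *ARO10* (145, the others 200 to 208), *SUC2* (177, the others 283 to 300), the permease gene *TAT1* (98.5, the others 121 to 123) and the exporter gene *QDR1* (73, the others 84.6 to 87). Replicate 4 was highest in *RPL12A* (118, the others 96.1 to 99.5) and *CHO1* (885, the others 729 to 751), and lowest in *BAT2* (253, the others 306 to 310) and *TPO2* (180, the others 233 to 242).

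Replicate 2 was highest in *ILV2* (822, the others 736 to 750). Replicate 3 was lowest in *LEU2* (1733, the others 2574 to 2743), and with it the stage 3 cultures overlapped those of stage 1 in that gene.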

How the results depend on the processing

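The counts of 422 genes higher and 388 lower changed by over 1.5 times only with the cutoff. They were 741 and 748 with no cutoff on log2FC, 43 and 78 with a cutoff of 1, and 41 and 86 when glmTreat tested against the cutoff of 0.5. When 1 culture was left out they were 331 to 503 and 306 to 464. The other settings (size factors of DESeq2, upper quartile, DESeq2, no filter or 10 counts in each culture, only the *SUP35* cultures, length and GC correction) gave 308 to 492 and 347 to 391. Depth limits genes of low level, such as *POL30* or *MFA1*.

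Deviations of same-numbered cultures from their group means had r of 0.408, -0.004 and -0.177 for numbers 1, 2 and 3. Those of cultures with different numbers had r of -0.426 to 0.340. Correlations of so few cultures cannot show whether the numbers pair the samples, and the main fit did not pair them. With a replicate block, which in effect leaves out stage 3 replicate 4, 392 genes were higher and 343 lower, of which 327 and 322 were the same genes, and 19 mitochondrial ribosomal protein genes rose. Of 193 named DEGs, 12 were lost under the block, *LEU2* and *LYS2* among them.

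Of the 193, 66 were DEGs under all 17 alternatives and 139 under all but glmTreat. No named DEG changed sign. Among genes near 0 that did not pass, *MF(ALPHA)1* changed sign to -0.0355 with the length correction, *HIS3* to -0.15 with the length and -0.22 with the GC correction, and *GEA2* and *SUP45* to -0.0200 and -0.0503 with the replicate block. When 1 culture was left out, *HIS3* had -0.12 to 0.13, *GEA2* -0.0180 to 0.191 and *SUP45* -0.0504 to 0.105. The highest chromosome median, on chromosome II (0.04), was 0.0704 with the upper quartile, 0.0558 with 10 counts in each culture, 0.0537 with only the *SUP35* cultures, 0.0264 with the replicate block and 0.0306 with the GC correction, and 0.0253 to 0.0493 when 1 culture was left out. The cause was not tested.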

Other observations

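Further gene groups held few DEGs. *ATG1*, the kinase that starts autophagy, had a log2FC of -1.07 and *ATG2* of -0.54, while the vacuolar hydrolase genes *PRC1* and *AMS1* and the protease inhibitor gene *PBI2* had log2FC of 0.62, 0.61 and 0.64. They were DEGs among 40 autophagy and vacuole genes, of which 3 rose and 3 fell (7.5% each, near the shares of all genes). Without stage 1 replicate 1, 5 rose. *ATG2* had a log2FC of -0.48 without stage 1 replicate 1 and -0.44 without stage 1 replicate 2, and *AMS1* of 0.48 without stage 1 replicate 3. In the peroxisome list 3 of 46 rose (6.52%, under the 7.21% of all genes), among them *SPS19*, a peroxisomal reductase gene (1.05). In the same list 5 fell, or 8 without stage 1 replicate 3. Of 41 proteasome genes 1 rose, *PRE2* (0.60), where 7.21% of all genes rose. By the adjusted p alone 12 of the 41 were higher and 1 lower, where 12.7% and 12.8% of all genes were, and the median was 0.25. In 17 of the 41, stage 3 lay above stage 1 without overlap, where 15.5% of all genes did. Their summed level was 14365.9 to 15014.5 at stage 1 and 15855.8 to 19205.6 at stage 3. Proteasome genes were thus higher as a group, by less than the cutoff in most.

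Of 20 genes of COS and other subtelomeric families 6 rose and 2 fell, with a median of -0.01, where 7.21% and 6.63% of all genes did. The 6 that rose were COS genes, with log2FC from 0.74 (*COS7*) to 1.46 (*COS6*, whose adjusted p was 0.06 to 0.12 without stage 1 replicates 2 or 3 or stage 3 replicate 2). These genes are near-identical, so reads may be split between them uncertainly and the 6 are not separate results. *COS7* was named after its value was seen, as the lowest of the 6.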
